A study of Mus musculus with 5 samples.

Results

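The VEGF ligands and receptors examined here are 9 genes of the 31053 gene rows counted in each tumor, taken by symbol. The ligands are Vegfa, Vegfb, Vegfc and Pgf, the receptor tyrosine kinases are Flt1, Kdr and Flt4 (VEGFR1, VEGFR2 and VEGFR3), and the co-receptors are the neuropilins Nrp1 and Nrp2. All 9 had UMIs (unique molecular identifiers, each standing for 1 captured transcript molecule), from 35 for Flt4 to 6856 for Vegfa in the 19533 cells analyzed.

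The mammary tumors came from MMTV-PyMT mice on the FVB/N background. Their oncogene, polyoma middle T, is under a mouse mammary tumor virus promoter that is active in mammary epithelium, and mice of both groups carried it. From 7 weeks of age, mice received 5 mg/kg intraperitoneally 2 times per week for 6 weeks, either of B20-4.1.1, an antibody that binds VEGF-A protein, or of isotype mouse IgG2a (clone C1.18.4). Viable sorted cells of 3 tumors were tagged with multiplexing oligonucleotides and pooled for droplet 3' RNA sequencing. There were 6 isotype tumors in 2 pools and 9 B20-4.1.1 tumors in 3 pools, so each pool held 1 treatment, and pool and treatment cannot be told apart. The tumor was the replicate.

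VEGF-A binds Flt1 and Kdr on endothelium, and Kdr carries most of the signal for vessel growth. Vegfb and Pgf bind Flt1, which can act as a decoy that withholds VEGF-A from Kdr. Vegfc acts mainly on Flt4, the receptor of lymphatic endothelium, and neuropilins bind both VEGFs and semaphorins. Transcription of Vegfa rises in cells short of oxygen. B20-4.1.1 binds a protein, whereas the values below are RNA.

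Depth ranged from 4014509 to 23726246 gene UMIs per tumor, and 511 to 2341 cells per tumor were kept. Cells were put into classes by at least 4 of 10 marker transcripts of a single class, with no VEGF gene among the markers, which placed 93.6% of kept cells. There were 13648 epithelial-like, 2584 T-like and 1385 macrophage-like cells, and each of the other classes with cells held between 18 (endothelial-like) and 179 (B-like). No cell met the rule for mural cells. The 18 endothelial-like cells carried their defining markers, with Cdh5 and Egfl7 in 100% and Plvap in 94.4% of cells. The monocyte-like, dendritic-like and NK-like classes overlapped less with clusters made without the VEGF genes, which held 61.6%, 68.8% and 0% of them under the same name. No cluster was named NK, so 0% was the only value possible for the NK-like class. B20-4.1.1 tumors 3, 4 and 6 stood apart, with 651, 336 and 572 T-like and 88, 30 and 53 B-like cells against at most 160 and 2 in any other tumor.

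Promoter windows are shown for Vegfa (the first of its 2 RefSeq starts here) and Vegfb, both called higher in epithelial-like cells under B20-4.1.1 (below). A window is also shown for Flt1, which was higher in hypoxia-high epithelial-like cells (below). Pgf, also called higher under B20-4.1.1, is not shown because its windows overlap annotated Pgf exons. Each shown window is the 250 bases before the RefSeq start, 5′ to 3′ on the gene's strand, build GRCm38.p6. Capitals mark the core of the hypoxia response element, searched as ACGTG and GCGTG on both strands.

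Vegfa, chr17:46032378-46032627, minus strand: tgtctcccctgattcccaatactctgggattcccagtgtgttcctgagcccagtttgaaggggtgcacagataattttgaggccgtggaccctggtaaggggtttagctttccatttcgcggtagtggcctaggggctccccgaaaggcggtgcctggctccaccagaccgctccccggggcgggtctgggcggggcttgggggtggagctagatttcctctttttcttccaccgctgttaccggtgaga
Vegfb, chr19:6987652-6987901, minus strand: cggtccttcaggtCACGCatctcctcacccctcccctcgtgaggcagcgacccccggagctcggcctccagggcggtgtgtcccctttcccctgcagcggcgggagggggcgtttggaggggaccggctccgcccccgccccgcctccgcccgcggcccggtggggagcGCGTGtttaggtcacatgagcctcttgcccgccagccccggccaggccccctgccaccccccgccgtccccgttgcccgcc
Flt1, chr5:147726012-147726261, minus strand: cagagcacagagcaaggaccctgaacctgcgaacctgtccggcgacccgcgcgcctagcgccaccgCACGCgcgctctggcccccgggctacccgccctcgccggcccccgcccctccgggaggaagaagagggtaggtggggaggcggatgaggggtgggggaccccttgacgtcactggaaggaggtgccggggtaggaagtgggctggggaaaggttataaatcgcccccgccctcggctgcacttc

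The printed Vegfa window held no match, while the window of the second Vegfa start, chr17:46025164-46025413, held 2 and overlaps a Vegfa exon. The Vegfb window held 2 and the Flt1 window 1. Of 11 windows of the 9 genes, 7 held a match, beside 38.6% of the 32851 mouse windows of this length. A match is a description of these letters only. In GENCODE M21 on GRCm38, all 9 are protein-coding genes. Vegfa lies at chr17:46016993-46032369, Vegfb at chr19:6982473-6987651, Vegfc at chr8:54077606-54187096 and Pgf at chr12:85166635-85177790. The receptor genes lie at chr5:147561604-147726011 (Flt1), chr5:75932827-75978458 (Kdr), chr11:49609263-49652739 (Flt4), chr8:128358604-128503363 (Nrp1) and chr1:62703285-62818695 (Nrp2).

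The first question was which cells held each transcript. The ligands Vegfa, Vegfb and Pgf lay mostly in epithelial-like cells by number of UMIs, the kinase receptors stood out in the few endothelial-like cells, and outside endothelium Nrp1 was highest in macrophage-like and fibroblast-like cells and Nrp2 in dendritic-like, monocyte-like and macrophage-like cells. Levels are UMIs per 10000 UMIs of a class, and each is compared within 1 gene. Intervals of pooled levels are exact 95% Poisson intervals and cover counting error only.

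**Figure D1:**
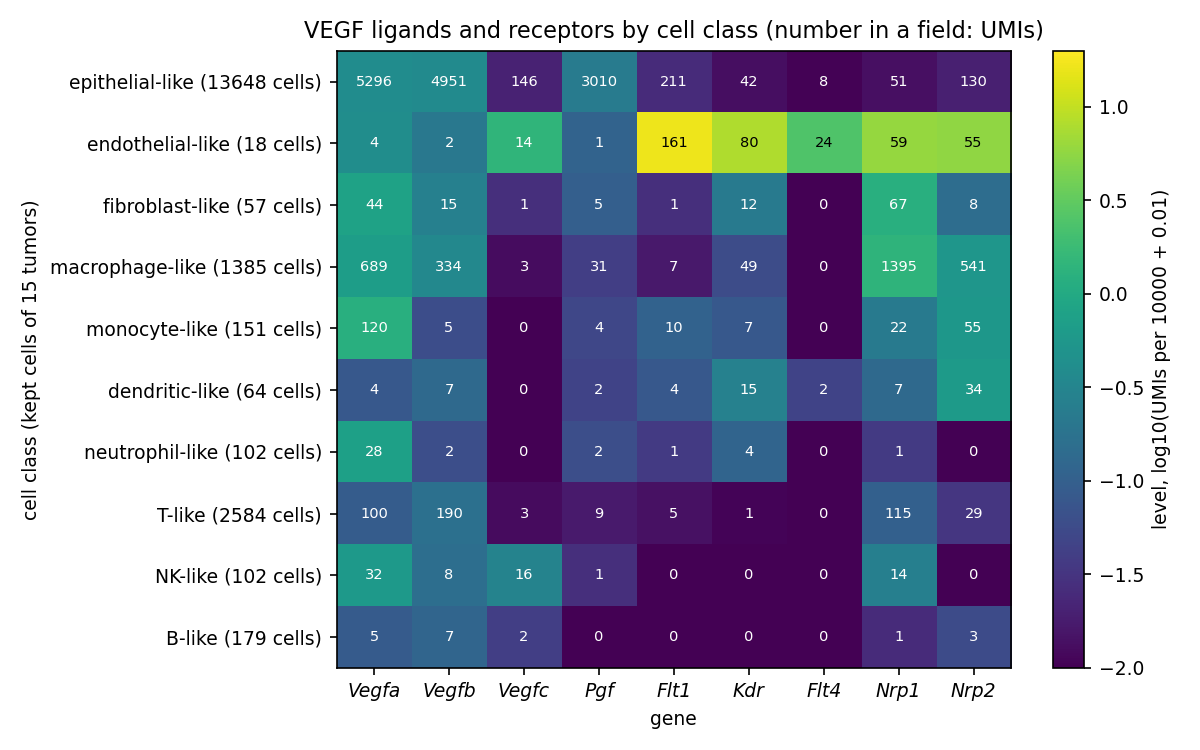
Level of the 9 genes (columns) in 10 cell classes (rows) over the kept cells of 15 tumors, as color on a log10 scale of UMIs per 10000, with the number of UMIs printed in each field. The endothelial-like row is brightest for Flt1 (161 UMIs) and Kdr (80 UMIs), and the macrophage-like row holds most Nrp1 UMIs (1395).

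Vegfa was spread over many classes. Epithelial-like cells held 77.2% of its 6856 UMIs and 78.8% of all UMIs, whereas macrophage-like cells held 10.0% of Vegfa UMIs and 5.89% of all UMIs. The pooled level was highest in monocyte-like cells at 1.21 (interval 1.00 to 1.44), followed by fibroblast-like (0.781), neutrophil-like (0.731), macrophage-like (0.686) and NK-like cells (0.582). In this order each interval overlapped that of its neighbor, while the monocyte-like interval lay above those of macrophage-like (0.636 to 0.739) and NK-like cells (0.398 to 0.822). Endothelial-like (0.405) and epithelial-like cells (0.395) came next, and T-like (0.0817), B-like (0.0777) and dendritic-like cells (0.0718) were lowest, with overlapping intervals. Within tumors, Vegfa was higher in epithelial-like than in T-like cells in 15 of 15 tumors, by 1.32 ± 0.50 (SD) on the log2(UMIs per 10000 + 0.1) scale (exact sign-flip permutation test, adjusted p = 0.000549, Benjamini-Hochberg over 27 comparisons of 9 genes and 3 pairs of classes). Against macrophage-like cells it was lower in 11 of 13 tumors, with a difference of -0.54 ± 0.67 (exact test, adjusted p = 0.0176). That call was lost after every cell was thinned to 2500 UMIs (-0.37, exact test, adjusted p = 0.134), and without isotype pool 1 (adjusted p = 0.0776), B20-4.1.1 pool 2 (0.0597) or B20-4.1.1 pool 3 (0.0558).

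Vegfa UMIs were concentrated in few macrophage-like cells. Of 1385 such cells, 210 had a Vegfa UMI, and these held 3.28 UMIs on average and up to 51. The 1% of macrophage-like cells with the most Vegfa UMIs held 33.7% of them, against 22.5% for the same share of epithelial-like cells. At 2500 UMIs per cell, a Vegfa UMI was found in 8.74% of macrophage-like and 7.97% of epithelial-like cells, beside 1.62% of T-like and 0% of B-like cells, classes that show what free RNA in the droplets may add. Median depths before thinning were 6388, 8756, 4054 and 3265 UMIs per cell.

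Vegfb, a ligand of Flt1 linked to fatty acid handling and vessel survival, had a level of 0.369 for epithelial-like, 0.333 for macrophage-like and 0.155 for T-like cells. It was higher in epithelial-like than in T-like cells in 15 of 15 tumors (0.88 ± 0.47 on the same log2 scale, exact test, adjusted p = 0.000549). Between epithelial-like and macrophage-like cells it differed by 0.15 ± 0.29, which did not pass the test (exact test, adjusted p = 0.0977). Monocyte-like cells, the class with the highest Vegfa, had a Vegfb level of 0.0502, from 5 UMIs (interval 0.0163 to 0.117).

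Pgf, placental growth factor, had the largest epithelial share of the 4 ligands, with 93.7% of its 3213 UMIs in epithelial-like cells. Its level there was 0.224, against 0.0309 for macrophage-like and 0.00735 for T-like cells. Epithelial-like cells exceeded macrophage-like cells in 13 of 13 tumors (1.41 ± 0.50, exact test, adjusted p = 0.000659). At equal depth, 4.54% of epithelial-like cells had a Pgf UMI, beside 0.310% of T-like cells.

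Vegfc, the lymphangiogenic ligand, was rare, with 212 UMIs in all. Of these, 146 lay in 135 epithelial-like cells, a level of 0.0109. In contrast, endothelial-like cells held 14 UMIs in 7 of 18 cells, a level of 1.42 (interval 0.775 to 2.38). NK-like cells held 16 UMIs in 11 of 102 cells from 8 tumors, a level of 0.291 (interval 0.166 to 0.473), whereas the far more numerous T-like cells held 3 UMIs in all. Both treatments had such NK-like cells, 7 of 51 under isotype and 4 of 51 under B20-4.1.1. These classes were too small for a test over tumors.

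The receptor kinases had their highest levels in endothelial-like cells. Flt1 had a level of 16.3 in endothelial-like cells (161 UMIs in 15 of 18 cells), and the next class, monocyte-like cells, reached 0.101 (10 UMIs). Kdr had a level of 8.10 in endothelial-like cells (80 UMIs in 13 cells), 0.269 in dendritic-like cells, where 13 of 15 UMIs lay in 1 cell, and 0.213 in fibroblast-like cells (12 UMIs). Flt4 had a level of 2.43 in endothelial-like cells (24 UMIs in 8 cells), and 8 further UMIs in epithelial-like and 2 in dendritic-like cells. No Flt4 UMI was found in the 2584 T-like cells, which allows a share of cells with a UMI of up to 0.116%. Although endothelial-like cells held 0.0580% of all UMIs, they held 38.2% of Flt1, 34.9% of Kdr and 68.6% of Flt4 UMIs.

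Outside endothelium the kinase receptors were sparse but not evenly so. Epithelial-like cells held 211 Flt1 UMIs in 174 cells, a level of 0.0157, above macrophage-like cells in 11 of 13 tumors (0.15 ± 0.14, exact test, adjusted p = 0.00352). Kdr went the other way. Macrophage-like cells held 49 Kdr UMIs in 38 cells of 12 tumors (level 0.0488), against 42 in the much larger epithelial-like class (0.00313) and 1 in T-like cells. Kdr was higher in macrophage-like than in T-like cells in 11 of 13 tumors (0.52 ± 0.37, exact test, adjusted p = 0.00203). Since these levels lie below the added 0.1, the log2 differences understate the ratios.

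Nrp1, a co-receptor of VEGF-A and of class 3 semaphorins, was mainly a macrophage-like transcript among the larger classes. Those cells held 72.4% of its 1928 UMIs, with a UMI in 672 of 1385 cells and a level of 1.39, next to 1.19 in fibroblast-like and 5.97 in endothelial-like cells. Epithelial-like minus macrophage-like cells gave -3.61 ± 0.43, with macrophage-like cells higher in 13 of 13 tumors (exact test, adjusted p = 0.000659), and macrophage-like cells also exceeded T-like cells in 13 of 13 (2.6 ± 0.77, exact test, adjusted p = 0.000659). Nrp2, which also serves Vegfc and Flt4, had levels of 0.539 in macrophage-like, 0.553 in monocyte-like and 0.610 in dendritic-like cells, with overlapping intervals, and 5.57 in endothelial-like cells. It was higher in macrophage-like than in T-like cells in 13 of 13 tumors (2.30 ± 0.38, exact test, adjusted p = 0.000659). The dendritic-like level rested on 34 UMIs, 10 of them in 1 cell.

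Nrp1 in T-like cells was described by a further marker. Foxp3, the factor that defines regulatory T cells, was not among the gating markers. Among the 47 T-like cells with a Foxp3 UMI, 20 had an Nrp1 UMI (42.6%, exact 95% interval 28.3 to 57.8), in 10 tumors. Among the 2537 T-like cells without one, 62 did (2.44%, 1.88 to 3.12), at a similar median depth (4024 and 4054 UMIs per cell). Thinned to 2500 UMIs the shares were 19.1% and 1.5%. This split was chosen after its values were seen and is given without a test.

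The second question was how the ligands in tumor epithelium differed between B20-4.1.1 and isotype tumors. Under B20-4.1.1, Vegfa, Pgf and Vegfb were higher in epithelial-like cells, and no gene of the family was called lower. The test was edgeR's quasi-likelihood F test on counts summed per tumor, with Benjamini-Hochberg adjustment over all 12301 genes tested, for 6 against 9 tumors. Of these genes, 14.8% were called in either direction and 7.61% were called higher. Of the 9 family members, 5 had enough counts to be tested (Vegfa, Vegfb, Vegfc, Pgf and Flt1) and 3 were called, all 3 higher. A change in sums over a class cannot tell more transcript per cell from more cells with the transcript.

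Vegfa in epithelial-like cells was 0.240, 0.317 and 0.372 UMIs per 10000 in the lowest, median and highest isotype tumor, and 0.361, 0.501 and 0.579 under B20-4.1.1. In 8 of 9 B20-4.1.1 tumors it lay above every isotype tumor, and the ratio of group means was 1.57. The log2 fold change was 0.75 (SE 0.11, edgeR adjusted p = 0.000982). By pool, tumors ran from 0.306 to 0.372 and 0.240 to 0.346 under isotype, and the lowest B20-4.1.1 pool ran from 0.361 to 0.487.

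Pgf ran from 0.0981 to 0.286 across isotype tumors (median 0.176) and from 0.153 to 0.450 under B20-4.1.1 (median 0.296), with 6 of 9 tumors above all isotype tumors. Its log2 fold change was 0.84 (SE 0.23, edgeR adjusted p = 0.0205). The isotype pools did not overlap each other, at 0.226 to 0.286 in pool 1 and 0.0981 to 0.126 in pool 2. Without isotype pool 2 the fold change was 0.45 on the log2 scale (edgeR adjusted p = 0.120), and without isotype pool 1 it was 1.38.

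Vegfb had the smallest fold change of the 3 called genes, from a median of 0.332 (range 0.302 to 0.373) to 0.389 (0.363 to 0.487), with 8 of 9 tumors above all isotype tumors. Its log2 fold change was 0.32 (SE 0.092, edgeR adjusted p = 0.0270), and it was 0.15 without isotype pool 1 (edgeR adjusted p = 0.358). The call was also lost without B20-4.1.1 pool 1 (edgeR adjusted p = 0.0646), pool 2 (0.0618) or pool 3 (0.0739). Without B20-4.1.1 pool 1, only 1 of the 5 tested members was called, so the call of Vegfa or of Pgf was lost there too. Vegfc differed by 0.37 (SE 0.27, edgeR adjusted p = 0.367) and Flt1 by 0.15 (SE 0.44, edgeR adjusted p = 0.855). Flt1, like Pgf, differed between the isotype pools, with 0.0222 to 0.0342 in pool 1 and 0.00409 to 0.00737 in pool 2.

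**Figure D2:**
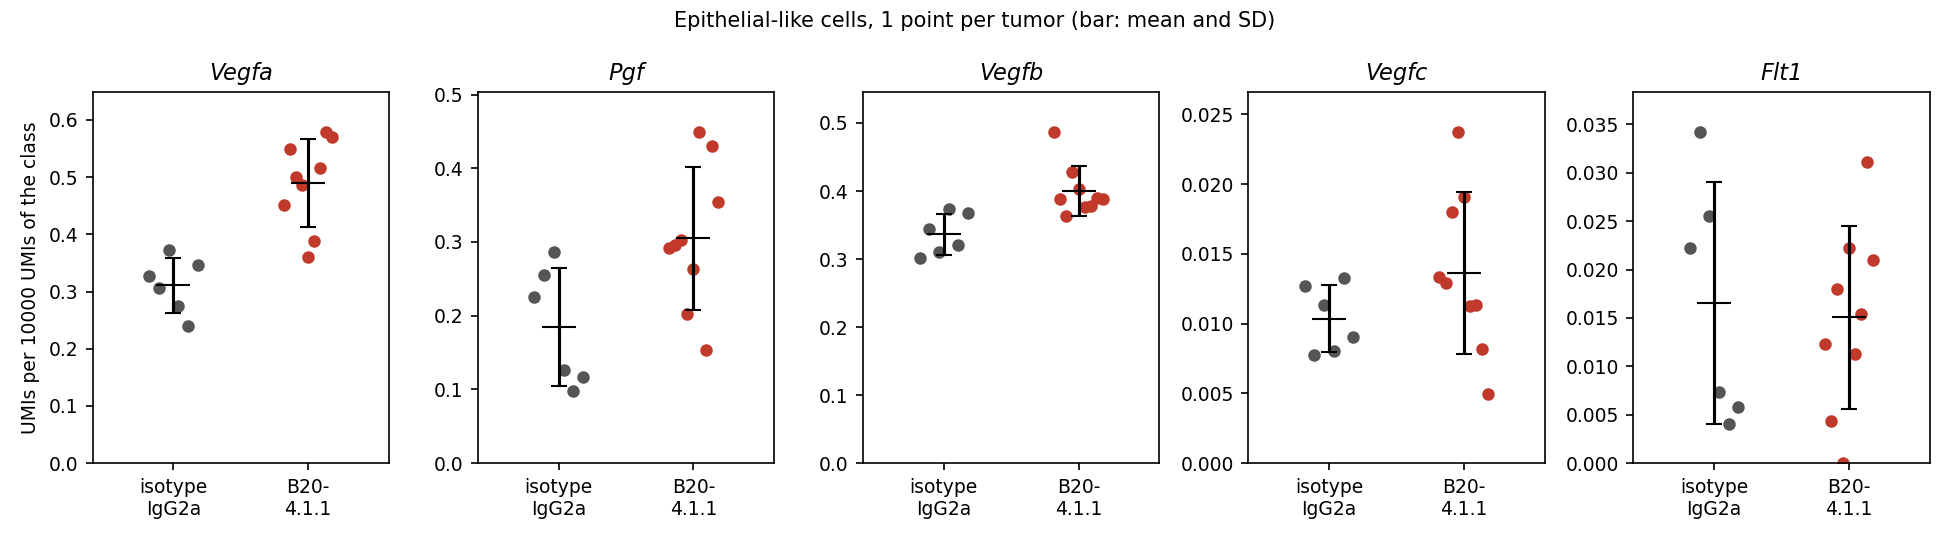
UMIs per 10000 UMIs of epithelial-like cells (y axes, a scale for each gene) in 6 isotype and 9 B20-4.1.1 tumors, with the mean and SD as a bar. For Vegfa and Vegfb 8 of 9 B20-4.1.1 tumors sit above all isotype tumors, and the isotype tumors split into 2 sets for Pgf and Flt1.

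With pool as a random effect (limma, consensus correlation 0.536 within pools), none of the 3 calls held, with adjusted p of 0.0992 for Vegfa, 0.216 for Vegfb and 0.301 for Pgf and log2 fold changes of 0.70, 0.35 and 0.76. That fit called 41 genes of 12301. Other measures of the same cells were compared. The mitochondrial share of UMIs was 3.77 to 6.68% in isotype and 2.88 to 3.63% in B20-4.1.1 tumors, and the median depth per cell was 7610 to 9502 and 7465 to 11920 UMIs. The 10 T cell markers summed to 0.0708 to 0.170 UMIs per 10000 in isotype and 0.120 to 0.382 in B20-4.1.1 tumors, and the 10 fibroblast markers to 0.0378 to 0.1004 and 0.0430 to 0.243. The 10 macrophage markers summed to 1.57 to 2.56 and 1.07 to 2.45, with overlapping ranges and medians of 2.02 and 2.10. Their part in the result was not tested.

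The share of epithelial-like cells with a UMI was compared at 2500 UMIs per cell. For Vegfb it was 7.78 ± 1.06% (SD, n = 6) under isotype and 10.1 ± 1.02% (n = 9) under B20-4.1.1 (exact permutation test, p = 0.00160, adjusted p = 0.0368 over 23 comparisons). Without any 1 of 4 pools (each pool but B20-4.1.1 pool 3) the adjusted p was between 0.0996 and 0.350, and without B20-4.1.1 tumors 3, 4 and 6 it was 0.249. Without an isotype pool the test set 3 against 9 tumors. A single comparison could then not pass after adjustment whatever its values, so those cases cannot show dependence on the pool. For Vegfa the share was 6.52 ± 1.04% and 9.66 ± 2.47% (exact permutation test, p = 0.0142, adjusted p = 0.163), and for Pgf 3.83 ± 1.15% and 5.54 ± 2.04% (adjusted p = 0.650). No other share of the 23 passed.

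Hypoxia target genes were also higher in epithelial-like cells under B20-4.1.1. Of the 20 on the list, which leaves out Vegfa, 11 (55%) were called higher and 0 lower, beside 7.61% of all genes called higher. The list's median was 0.45 on the log2 scale, beside -0.0062 over all genes. The smallest adjusted p belonged to Ankrd37 (1.46, edgeR adjusted p = 0.000462), the glycolytic enzyme Pgk1 (0.91, 0.000512), the mitophagy receptor Bnip3 (1.10, 0.0008) and Pfkfb3 (0.75, 0.00224), which drives glycolysis. Summed over the list, the level was 7.73 to 8.50 UMIs per 10000 in the isotype and 10.1 to 12.99 in the B20-4.1.1 tumors, with no overlap. With pool as a random effect 3 of the 20 (15%) were called, beside 0.333% of all genes.

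Genes that carry the VEGF receptor signal were called about as often as all genes. Of 42, 38 were tested in epithelial-like cells and 5 were called, 13.2% of those tested. The small heat shock protein Hspb1 rose (0.79, edgeR adjusted p = 0.00722), and Plcg1, which couples Kdr to protein kinase C, fell (-0.47, 0.00781), as did Ptk2 (-0.33, 0.0297), Mapk14 (-0.33, 0.0309) and Ppp3ca (-0.36, 0.0436). With pool as a random effect and with sums per pool 0 of the list were called, as without isotype pool 1. Without isotype pool 2, 17 were, 44.7% of those tested, close to the 43.8% of all genes called in that fit. Of 13 tested genes that endothelium turns on after VEGF, Pdgfb, which recruits pericytes, was higher (1.76, edgeR adjusted p = 0.00210) and Nr4a1 lower (-0.47, 0.0303). These are 15.4% of those tested, close to the share of all genes called, and with pool as a random effect 0 of the list were called. Of the other VEGF and semaphorin ligands 2 were tested, and of the neuropilin partners 4, and 0 of either list were called by edgeR.

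The third question was where in the epithelium the ligands lay. The 10% of epithelial-like cells with the highest share of UMIs in the hypoxia list, called hypoxia-high below, were set against the rest of the same tumor, in 6 isotype and 8 B20-4.1.1 tumors with enough epithelial-like cells (B20-4.1.1 tumor 4, with 76, was left out). Hypoxia-high is a range of a score, not a cell type. Vegfa, Pgf and Flt1 were higher in it, and Vegfb did not pass the test. Applying the split to genes other than Vegfa was decided after the Vegfa values were known.

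Vegfa had a mean level of 1.69 ± 0.72 (SD) in hypoxia-high cells and 0.271 ± 0.058 in the rest, higher in 14 of 14 tumors by 2.17 ± 0.48 on the log2(UMIs per 10000 + 0.1) scale (exact sign-flip permutation test, p = 0.000122, the smallest that 14 tumors allow). Hypoxia-high cells held 40% of epithelial-like Vegfa UMIs. Their depth was close to that of the rest, with a mean of the tumors' median depths of 8909 against 9212 UMIs.

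Pgf had a mean level of 0.725 ± 0.36 in hypoxia-high cells and 0.208 ± 0.093 in the rest, higher in 14 of 14 tumors by 1.35 ± 0.53 (exact test, adjusted p = 0.000366 over 6 genes). Hypoxia-high cells held 28.6% of its UMIs. Flt1 was higher in 12 of 14 tumors, by 0.29 ± 0.36 (exact test, adjusted p = 0.0227), with levels of 0.0420 and 0.0139, both under the added 0.1, so that the log2 difference understates their ratio. The difference was 0.072 ± 0.46 for Vegfb (exact test, adjusted p = 0.587), -0.038 ± 0.17 for Vegfc (adjusted p = 0.484) and 0.081 ± 0.22 for Nrp2 (adjusted p = 0.282).

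With the 10% taken in each tumor, the gap between hypoxia-high cells and the rest was wider for both ligands under B20-4.1.1. The compared cells did not have the same hypoxia score, since the cut lay at 11.6 to 13.8 list UMIs per 10000 in isotype and 17.5 to 25.4 in B20-4.1.1 tumors. For Vegfa it was 1.76 under isotype and 2.49 under B20-4.1.1, a difference of 0.73 (exact permutation test over 14 tumors, p = 0.00133, adjusted p = 0.00799 over 6 genes). In hypoxia-high cells themselves, the Vegfa level was 0.670, 1.01 and 1.48 in the lowest, median and highest isotype tumor and 1.56, 2.05 and 3.00 under B20-4.1.1, so that the groups did not overlap (log2 difference 1.01, exact permutation test, adjusted p = 0.00400 over 12 comparisons). In the rest the medians were 0.240 and 0.312 (log2 difference 0.28, exact permutation test, adjusted p = 0.0769).

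Pgf had a gap of 0.97 under isotype and 1.64 under B20-4.1.1 (difference 0.67, exact permutation test, adjusted p = 0.0469). In hypoxia-high cells, Pgf ran from 0.258 to 0.527 in isotype and from 0.606 to 1.25 in B20-4.1.1 tumors without overlap (log2 difference 1.09, exact permutation test, adjusted p = 0.00400), against 0.43 in the rest (adjusted p = 0.184). For Vegfb the B20-4.1.1 minus isotype difference was 0.18 in the rest (exact permutation test, adjusted p = 0.0320) and 0.15 in hypoxia-high cells (adjusted p = 0.712). The test of the gap itself was not passed (difference -0.027, exact permutation test, adjusted p = 0.936). With the pool as the unit, 2 against 3 pools could not give a p below 0.1.

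A score cut common to all tumors (16.3 list UMIs per 10000) was chosen after seeing the data. With it, these treatment differences of Vegfa and Pgf were no longer found. That of Vegfb remained below the cut (log2 difference 0.19, exact permutation test, adjusted p = 0.0280) and was 0.011 above it (adjusted p = 0.976). Of epithelial-like cells, 3.80 to 6.08% lay above that cut in isotype and 11.3 to 23.7% in B20-4.1.1 tumors. Vegfa was still higher above the cut in 14 of 14 tumors (2.28, exact test, adjusted p = 0.000366), but its gap was 2.32 under isotype and 2.25 under B20-4.1.1 (difference -0.073, exact permutation test, adjusted p = 0.860). Above the cut, the Vegfa level ran from 1.06 to 2.22 in isotype and from 1.08 to 2.17 in B20-4.1.1 tumors (log2 difference 0.0058, exact permutation test, adjusted p = 0.976). Below it the log2 difference was 0.079 (exact permutation test, adjusted p = 0.431). For Pgf the gaps differed by 0.068 (exact permutation test, adjusted p = 0.860) and the level above the cut by 0.37 (adjusted p = 0.629).

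**Figure D3:**
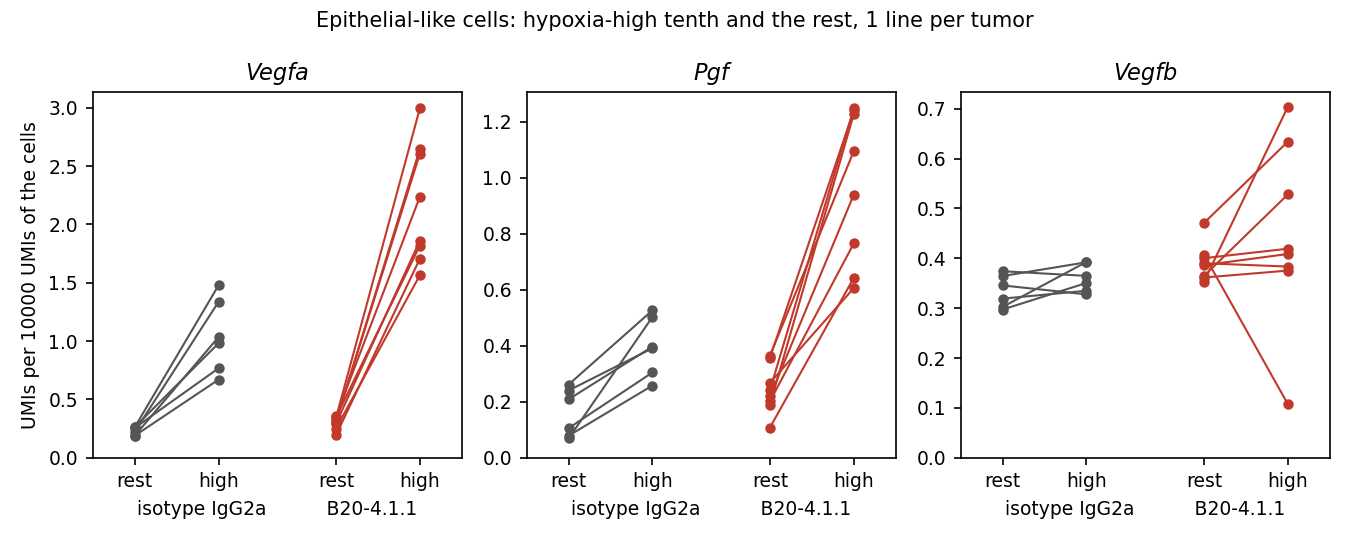
UMIs per 10000 UMIs (y axes, a scale for each gene) in the rest of the epithelial-like cells and in hypoxia-high cells, with 1 line per tumor (6 isotype in gray, 8 B20-4.1.1 in red). Hypoxia-high is the highest 10% in each tumor, at a higher score cut in B20-4.1.1 tumors. For Vegfa and Pgf every line rises and the B20-4.1.1 tumors end above all isotype tumors, whereas lines for Vegfb go both ways.

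In macrophage-like cells the question was whether Vegfa and the neuropilins differed with treatment. With 6 isotype and 7 B20-4.1.1 tumors (tumors 3 and 4 held under 20 such cells), 0 of the 4 family members tested were called, by edgeR and by DESeq2 alike. At an unadjusted p under 0.05, 2 of the 4 passed in edgeR, as did 688 of all 6826 genes tested. After adjustment, 0.0439% of the 6826 genes were called.

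Vegfa in macrophage-like cells ran from 0.0855 to 0.683 in isotype tumors (median 0.573) and from 0.560 to 1.81 in B20-4.1.1 tumors (median 0.633). The log2 fold change was 0.86 (SE 0.30, edgeR adjusted p = 0.318), and 0.41 after every cell was thinned to 2500 UMIs (edgeR adjusted p = 0.580). The lowest value, in isotype tumor 5, rested on 4 UMIs in 71 cells. Among all B20-4.1.1 macrophage-like cells, 1 held 51 of the 370 Vegfa UMIs, whereas the most in an isotype cell was 23 of 319. In 3 of 7 B20-4.1.1 tumors Vegfa lay above every isotype tumor. The treatment difference did not differ between epithelial-like and macrophage-like cells beyond the spread of tumors, for Vegfa (-0.21, exact permutation test, adjusted p = 0.597) or Vegfb (0.24, adjusted p = 0.2995).

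Nrp1 in macrophage-like cells had a mean of 1.43 ± 0.52 (SD, n = 6) under isotype and 1.05 ± 0.25 (n = 7) under B20-4.1.1 (log2 fold change -0.42, SE 0.20, edgeR adjusted p = 0.502). Here too the isotype pools did not overlap, at 1.82 to 1.98 in pool 1 and 0.812 to 1.04 in pool 2. Without isotype pool 2 the fold change was -0.77 on the log2 scale (edgeR adjusted p = 0.0175), and without isotype pool 1 it was 0.11. Nrp2 had a mean of 0.576 ± 0.083 and 0.441 ± 0.10, with 5 of 7 B20-4.1.1 tumors below every isotype tumor (log2 fold change -0.35, SE 0.16, edgeR adjusted p = 0.458). Vegfb differed by 0.096 (SE 0.20, edgeR adjusted p = 0.907).

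**Figure D4:**
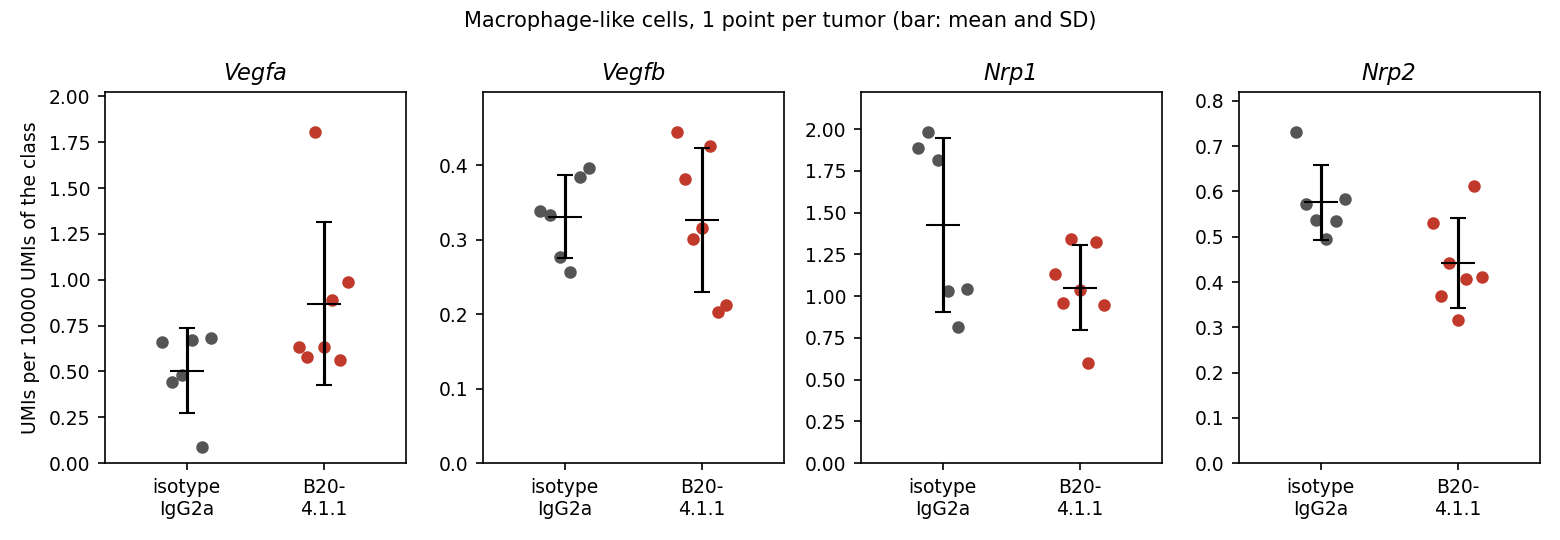
UMIs per 10000 UMIs of macrophage-like cells (y axes, a scale for each gene) in 6 isotype and 7 B20-4.1.1 tumors, with the mean and SD as a bar. The Vegfa value of B20-4.1.1 tumor 5 (1.81) stands above the others, and the isotype tumors split into 2 sets for Nrp1.

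In T-like cells Vegfb alone had enough counts, and it differed by 0.12 on the log2 scale (SE 0.35, edgeR adjusted p = 0.913). Of 5759 genes, 0% were called by edgeR, 947 had an unadjusted p under 0.05, and DESeq2 called 40. Over all kept cells of a tumor, 8 of the 9 genes were tested and 0 were called by edgeR, beside 4.83% of 13342 genes. There, Vegfa differed by 0.56 (SE 0.19, edgeR adjusted p = 0.0805; DESeq2 adjusted p = 0.0353) and Pgf 0.59 (SE 0.29, edgeR adjusted p = 0.206). Without the T-rich B20-4.1.1 tumors 3, 4 and 6, Vegfa was called over all kept cells (0.75, edgeR adjusted p = 0.0136). Epithelial-like cells held 78.2 ± 12.5% (SD, n = 6) of a tumor's Vegfa UMIs under isotype and 71.1 ± 15.8% (n = 9) under B20-4.1.1 (exact permutation test, adjusted p = 0.564 over 3 classes), while their mean share of all UMIs was 82.3% and 67.0%.

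Endothelial-like cells, which had the highest level of all 5 receptors, were too few for a test. The 10 isotype cells came from 5 tumors and the 8 B20-4.1.1 cells from 5, with 61410 and 37382 UMIs. Pooled over cells, Flt1 was 22.5 (interval 18.9 to 26.6) under isotype and 6.15 (3.9 to 9.23) under B20-4.1.1, Kdr 9.93 (7.60 to 12.8) and 5.08 (3.06 to 7.94), Flt4 3.58 (22 UMIs) and 0.535 (2 UMIs), Nrp1 9.12 (6.89 to 11.8) and 0.802 (3 UMIs), and Nrp2 7.65 (5.62 to 10.2) and 2.14 (8 UMIs). All 5 receptor values were lower under B20-4.1.1. Isotype tumor 3, with 4 cells, held 104 of the 161 Flt1 UMIs and 32 of the 59 Nrp1 UMIs, and 1 of its cells alone held 77 and 30. Without that tumor, the 6 other isotype cells had levels of 8.99 for Flt1 (interval 6.22 to 12.6), 8.20 for Kdr (5.57 to 11.6) and 6.34 for Nrp1 (4.07 to 9.44), so that the Flt1 and Kdr intervals overlapped those of the B20-4.1.1 cells. The Flt1 difference was thus much smaller without it. The Flt4 intervals overlapped too (0.744 to 3.81 and 0.0648 to 1.93). Those of Nrp1 and Nrp2 stayed apart, with Nrp2 at 4.70 to 10.4 and 0.924 to 4.22. However, 1 cell of isotype tumor 5 held 18 of the 24 Nrp1 and 17 of the 27 Nrp2 UMIs left in isotype cells. Lowering the UMI minimum to 1000 gave 27 endothelial-like cells, with Flt1 at 22.4 in 16 isotype and 6.81 in 11 B20-4.1.1 cells. These intervals cover counting error only, and cells of a tumor are not replicates.

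**Figure D5:**
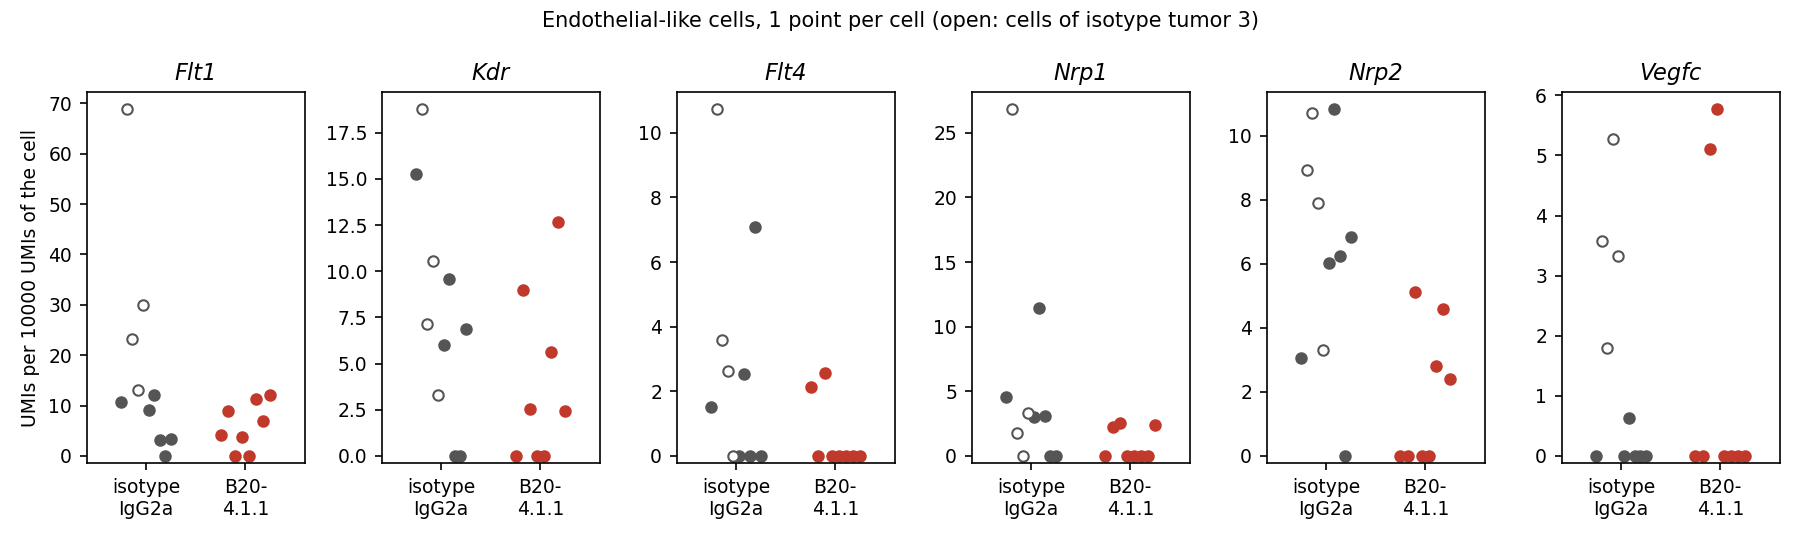
UMIs per 10000 UMIs of the cell (y axes, a scale for each gene) for 6 genes in the 10 isotype and 8 B20-4.1.1 endothelial-like cells, 1 point per cell. Open points are the 4 cells of isotype tumor 3, which include the highest value of Flt1, Kdr, Flt4 and Nrp1.

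A pair of the endothelial-like cells carried the lymphatic markers Prox1 and Mmrn1, 1 in isotype tumor 5 and 1 in B20-4.1.1 tumor 5. The first had 2 Flt4 UMIs and none of Flt1 or Kdr, and the second had no UMI of any of the 9 genes. The remaining 16 had no Prox1 UMI.

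By likeness of pattern, described without a test, the genes closest to Vegfa across 15 tumors in epithelial-like cells were the lactate exporter Slc16a3 (Pearson r = 0.93 of log2 CPM), Sectm1a (0.90), Tnfrsf11b (0.90), the adenylate kinase Ak4 (0.89) and Pfkfb3 (0.89). All 5 were higher under B20-4.1.1, with log2 fold changes from 0.75 to 2.86 and edgeR adjusted p from 0.000191 to 0.00454. The likeness was taken over tumors of both treatments, so genes that differ with treatment as Vegfa does were favored by the choice. Closest to Nrp1 across 13 tumors in macrophage-like cells were Coro1b (r = 0.95), Ap3d1 (0.94), Med13l (0.94), Trip12 (0.93) and Nsd3 (0.91). Over 10 cell classes, genes close to Kdr included Spred3 (r = 0.97), Exoc3l4 (0.97), Sync (0.96) and Flt1 (0.95), a likeness that rests on the 18 endothelial-like cells. Tumors of a pool share a library, and classes of a tumor share its depth.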

How the data were processed

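Single cells of 15 tumors were measured by droplet 3' RNA sequencing. The authors deposited 1 matrix per tumor of raw UMI counts per gene and cell, made with Cell Ranger 6.1.2 per the file headers. The submitters' processing notes also name bcl2fastq, Seurat 4.3.0 and mm10; the annotation is not given in the sources used here. The 30340 deposited cells held 4014509 to 23726246 gene UMIs per tumor. Multiplexing rows (12) were left out.

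Kept were 19533 cells, those with 2500 to 27500 UMIs of which mitochondrial genes gave no more than 20%. The UMI minimum removed 7126 isotype and 2981 B20-4.1.1 cells. No doublet caller was run; cells with at least 4 markers of more than 1 class (778) and ties (41) entered no class, nor did 424 cells below the minimum. No barcode was shared within a pool, and 94 were found in more than 1 pool. Marker thresholds were set on the data. Counts were summed per tumor and class where a tumor held at least 20 cells and tested with edgeR 4.0.16 (quasi-likelihood F test, TMM, filterByExpr, Benjamini-Hochberg at 0.05), with R 4.3.3. DESeq2 1.42.0 and limma 3.58.1 with pool as a random effect were alternatives. Exact permutation tests were two-sided (scipy 1.17.1), and levels took a pseudocount of 0.1. Code was tested on simulated data.

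All 9 family genes are named. From each pathway list up to 4 called genes per direction with the smallest adjusted p are named, and 5 genes per likeness, of which 1 is not reported here. The members and lists were chosen with earlier results of these data known. Alternatives covered scaling, filters, depth, gating, clusters, pools left out and 3 tumors left out. The study's mammary tumor classes are not in the labels used here and were not used.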

Additional observations from a re-analysis of the deposited data

Results flagged for a closer look

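Vegfa in macrophage-like cells of B20-4.1.1 tumor 5 was 1.807 UMIs per 10000, far from the next B20-4.1.1 tumor at 0.986. It rested on 90 UMIs in 54 cells. Of 20 groups tested for a sample far from the others, 1 was found, and chance gives about 5% of groups.

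The Vegfa difference between B20-4.1.1 and isotype was larger in hypoxia-high than in other epithelial-like cells, by 0.7323 on the log2 scale (exact permutation test over 14 tumors, adjusted p = 0.00799). For Pgf the corresponding value was 0.6663 (exact permutation test, adjusted p = 0.0469). Both values take the highest 10% of cells in each tumor. With 1 score cut for all tumors they were -0.073 and 0.068 (exact permutation test, adjusted p = 0.860 for both). Treatment and pool cannot be told apart in either.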

How the results depend on the processing

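No paired analysis was possible because the replicate numbers in the labels only name pools, and pools or tumors of different treatments share no animal. Leaving out each pool in turn is given as lowest to highest value, and leaving out B20-4.1.1 tumors 3, 4 and 6 was chosen after seeing the data. The cause of a change was not tested.

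Epithelial-like cells. Genes called (1823) were 41 with pool as a random effect, 0 with sums per pool, 996 after thinning and 427 to 5542 without a pool. Family genes called (3) were 0 in both pool fits and 1 to 2 without a pool. Vegfa was 0.70 (random effect) and 0.69 (sums per pool), not called in either, and 0.62 to 0.87 without a pool. Vegfb was 0.35, 0.32 and, with no filter, 0.31, not called, and 0.15 to 0.53 without a pool. Pgf was 0.76, 0.77 and, without the 3 tumors, 0.81, not called, and 0.45 to 1.38 without a pool. Flt1 ran from -0.53 to 1.43.

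Macrophage-like cells. Vegfa was 0.41 after thinning and 0.58 to 1.08 without a pool. Genes called (3) were 6 with 1000 UMIs, 29 with DESeq2, 30 with clusters, 37 with no filter, 8 after thinning, 0 in both pool fits and 0 to 577 without a pool, and family genes called 0 to 1. Nrp1 ran from -0.77 to 0.11 and Vegfb from -0.087 to 0.22, with -0.030 by clusters.

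T-like cells and all kept cells. Genes called in T-like cells (0) were 40 with DESeq2, 4 with clusters, 2 without the 3 tumors and 0 to 445 without a pool. Vegfb there ran from -0.21 to 0.0045 in the fits without isotype pool 1 or B20-4.1.1 pool 3. Without any other pool it had too few counts to be tested. Over all kept cells, 645 became 1867 with DESeq2, 333 with no filter, 121 after thinning, 0 in both pool fits and 5 to 3521 without a pool, and family genes called 1 with DESeq2, 1 without the 3 tumors and 0 to 1 without a pool. Without a pool, ranges there were -0.015 to 0.34 for Vegfb, -0.085 to 0.42 for Vegfc, -1.40 to 0.44 for Flt1, -0.55 to 0.47 for Kdr, -1.10 to 0.65 for Nrp1 and -0.46 to 0.28 for Nrp2. Kdr was 0.057 without the 3 tumors and 0.11 with the random effect.

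Shares and classes. The treatment difference of the Vegfa gap between hypoxia-high and other cells (0.73) was no longer found with 1 score cut for all tumors (-0.073, exact permutation test, adjusted p = 0.860). That cut was chosen after seeing the data, and a larger share of B20-4.1.1 cells lies above it. Vegfa, epithelial-like minus macrophage-like, was -0.37 after thinning and -0.60 to -0.40 without a pool. Its treatment difference between these classes ran from -0.37 to 0.061. The B20-4.1.1 minus isotype percent of Vegfa UMIs ran from -16.9 to 2.79 in epithelial-like cells (0.865 without the 3 tumors), -2.28 to 5.54 in macrophage-like and 0.498 to 2.67 in T-like cells. The percent of epithelial-like cells with a Vegfa UMI differed by 8.07 unthinned, and with a Vegfb UMI by 2.03 to 2.56 without a pool and 2.07 without the 3 tumors. In macrophage-like cells the percent differed by -10.9 to 3.1 for Nrp1 and -1.68 to 0.333 for Nrp2.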

Other observations

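In macrophage-like cells 14 of the 20 hypoxia target genes were tested and 0 were called by edgeR, while 13 of the 14 had a positive log2 fold change, with a median of 0.46 beside 0.0067 over all genes. Within T-like cells, Vegfa was found in 3 of 47 cells with a Foxp3 UMI and 74 of 2537 without one, and Nrp2 in 1 and 26.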
